A study of Mus musculus with 28 samples.

Results

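Smooth muscle contractile genes, as activated stellate cells are known to carry them, were measured in 28 bulk mouse liver libraries, and they are Acta2, Actg2, Tagln, Cnn1, Myh11, Myl9, Tpm1, Tpm2, Des and Lmod1. They are 10 of the 22187 genes in the table and were selected on measured values, the lower Acta2 and Tagln of tumors lacking hepatocyte Il17ra on alcohol, so their values in those tumors are a description. All 10 were measured, and 7 of them stayed at 1 CPM (the read count scaled to a library total of 1000000) or above in at least 27 libraries: Acta2, Tagln, Myh11, Tpm1, Tpm2 and Des in 28 and Myl9 in 27.

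The study set mice lacking the interleukin-17 receptor A in hepatocytes (dHEP, floxed Il17ra with Cre recombinase under the albumin promoter) against floxed mice without Cre (FF). All were C57BL/6 mice that received 25 mg/kg of the liver carcinogen DEN at 2 weeks of age, followed by 18 weeks of an alcohol diet or chow. The groups were dHEP alcohol tumors, FF alcohol tumors, dHEP chow tumors and FF chow tumors, and non-tumor liver of the same 4 kinds, with 4 libraries in each alcohol group and 3 in each chow group. The labels call the alcohol diet both a high-fat diet with alcohol and an isocaloric liquid ethanol feed. Age at collection and sex are not given. The labels number the animals, so replicates are separate animals, 17 in all, of which 11 gave both tissues; no FF chow animal did. Alcohol animals carry numbers in another range than chow animals, so diet and cohort cannot be told apart.

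Hepatic stellate cells are the vitamin A storing pericytes of the liver sinusoid. On injury they turn into myofibroblasts that make collagen and switch on smooth muscle genes, of which smooth muscle actin is the usual marker. In smooth muscle, actin and myosin filaments slide over each other, tropomyosin and calponin lie along the actin filament, and desmin forms the intermediate filaments that hold the apparatus together. Serum response factor and its myocardin-family partners act on many of these genes through CArG boxes in their promoters. Vascular smooth muscle and portal fibroblasts carry the same genes. In bulk tissue the cell that gave the RNA is not known, and fewer cells of a type and less RNA per cell cannot be told apart.

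The promoters of 2 members held CArG-like boxes close to the start site and are shown beside that of Tpm2, which held none and whose levels ran differently from the others. A CArG box was taken as 2 C, 6 bases of A or T and 2 G, allowing 1 of the inner bases to be G or C; each hit is in capitals. Windows run from 250 bases before to 50 bases after the start in the RefSeq annotation of GRCm38.p6, written 5′ to 3′ on the gene's strand. The first is Acta2 at chr19:34255324-34255623 on the minus strand, the second Myl9 at chr2:156775214-156775513 on the plus strand, and the third Tpm2 at chr4:43523505-43523804 on the minus strand.
Acta2: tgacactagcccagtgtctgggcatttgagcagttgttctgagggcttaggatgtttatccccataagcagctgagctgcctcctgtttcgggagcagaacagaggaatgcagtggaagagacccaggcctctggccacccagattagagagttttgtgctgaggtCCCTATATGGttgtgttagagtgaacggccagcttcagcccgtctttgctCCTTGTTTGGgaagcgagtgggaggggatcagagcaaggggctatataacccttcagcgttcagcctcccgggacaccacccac
Myl9: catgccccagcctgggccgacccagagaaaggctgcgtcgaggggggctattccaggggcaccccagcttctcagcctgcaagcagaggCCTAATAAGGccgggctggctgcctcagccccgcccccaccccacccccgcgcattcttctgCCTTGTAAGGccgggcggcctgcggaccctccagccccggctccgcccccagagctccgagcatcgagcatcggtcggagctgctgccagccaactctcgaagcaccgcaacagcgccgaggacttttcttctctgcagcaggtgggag
Tpm2: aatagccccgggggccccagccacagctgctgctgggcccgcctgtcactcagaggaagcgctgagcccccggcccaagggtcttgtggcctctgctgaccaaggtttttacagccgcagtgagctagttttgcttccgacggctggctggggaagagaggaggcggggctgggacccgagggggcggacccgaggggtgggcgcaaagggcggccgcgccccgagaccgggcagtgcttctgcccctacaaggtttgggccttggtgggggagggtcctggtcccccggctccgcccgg
The Acta2 boxes, CCCTATATGG and CCTTGTTTGG, begin at -84 and -34 from the start, and the Myl9 boxes, CCTAATAAGG and CCTTGTAAGG, at -161 and -99. Windows were read for 7 of the 10 genes, not for Tagln, Myh11 and Actg2. Des, Lmod1, Cnn1 and Tpm1 held no such box in these letters. Of 32851 promoters in the table, 9.98% held at least 1 such box and 0.822% held 2 or more, as Acta2 and Myl9 did. CCTAATAAGG of Myl9 was the only box without an inner G or C among the 7, a form present in 1.63% of all promoters.

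Facts of the whole series that touch these genes are few. Estimated depth was 9.52 to 17.76 M reads per library (M, 1000000), so 3 reads correspond to 0.169 to 0.315 CPM. Il17ra, the targeted gene, lay at 8.34 to 12.99 CPM in dHEP non-tumor liver, against 14.7 to 31.0 CPM in FF non-tumor liver. In tumors it lay at 8.38 to 29.4 CPM in dHEP, against 20.8 to 33.9 CPM in FF; the libraries labelled dHEP-520 and dHEP-155 tumor, at 28.2 and 29.4 CPM, lay inside the FF range. The deposited value covers the whole gene, and which exons the deletion removes is not given in the sources used here. On the first principal component, which held 50.3% of the variance, dHEP-549 tumor (-5.15) lay between the other tumors (18.5 to 77.7) and non-tumor liver (-53.4 to -17.1). Skeletal muscle markers summed over 10 genes stayed at 0.199 to 1.41 CPM in every library, and Myocd, which encodes the smooth muscle cofactor myocardin, was listed at 0 in 20 of 28 libraries and reached at most 0.238 CPM.

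Per length of exon, Tpm1 was the most abundant of the 10, with a mean of 12.6 CPM per kb over the 28 libraries. Acta2 (5.94 CPM per kb) and Tagln (5.57 CPM per kb) followed, then Myl9 (3.10 CPM per kb) and Tpm2 (2.74 CPM per kb). Myh11 (1.04 CPM per kb) and Des (1.027 CPM per kb) came next, and Actg2 (0.546 CPM per kb), Lmod1 (0.199 CPM per kb) and Cnn1 (0.133 CPM per kb) were low. Tpm1 stood above Acta2, and Tagln above Myl9, in all 28 libraries; the other neighbours changed places between libraries, Acta2 standing above Tagln in 12 of 28. In alcohol non-tumor liver Tpm2 stood at 5.15 CPM per kb in dHEP and 6.15 CPM per kb in FF, above Acta2 at 1.04 CPM per kb in dHEP and 1.37 CPM per kb in FF. In alcohol tumors Acta2 stood above Tpm2: 4.10 against 1.10 CPM per kb in dHEP, and 14.2 against 1.75 CPM per kb in FF.

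**Figure D1:**
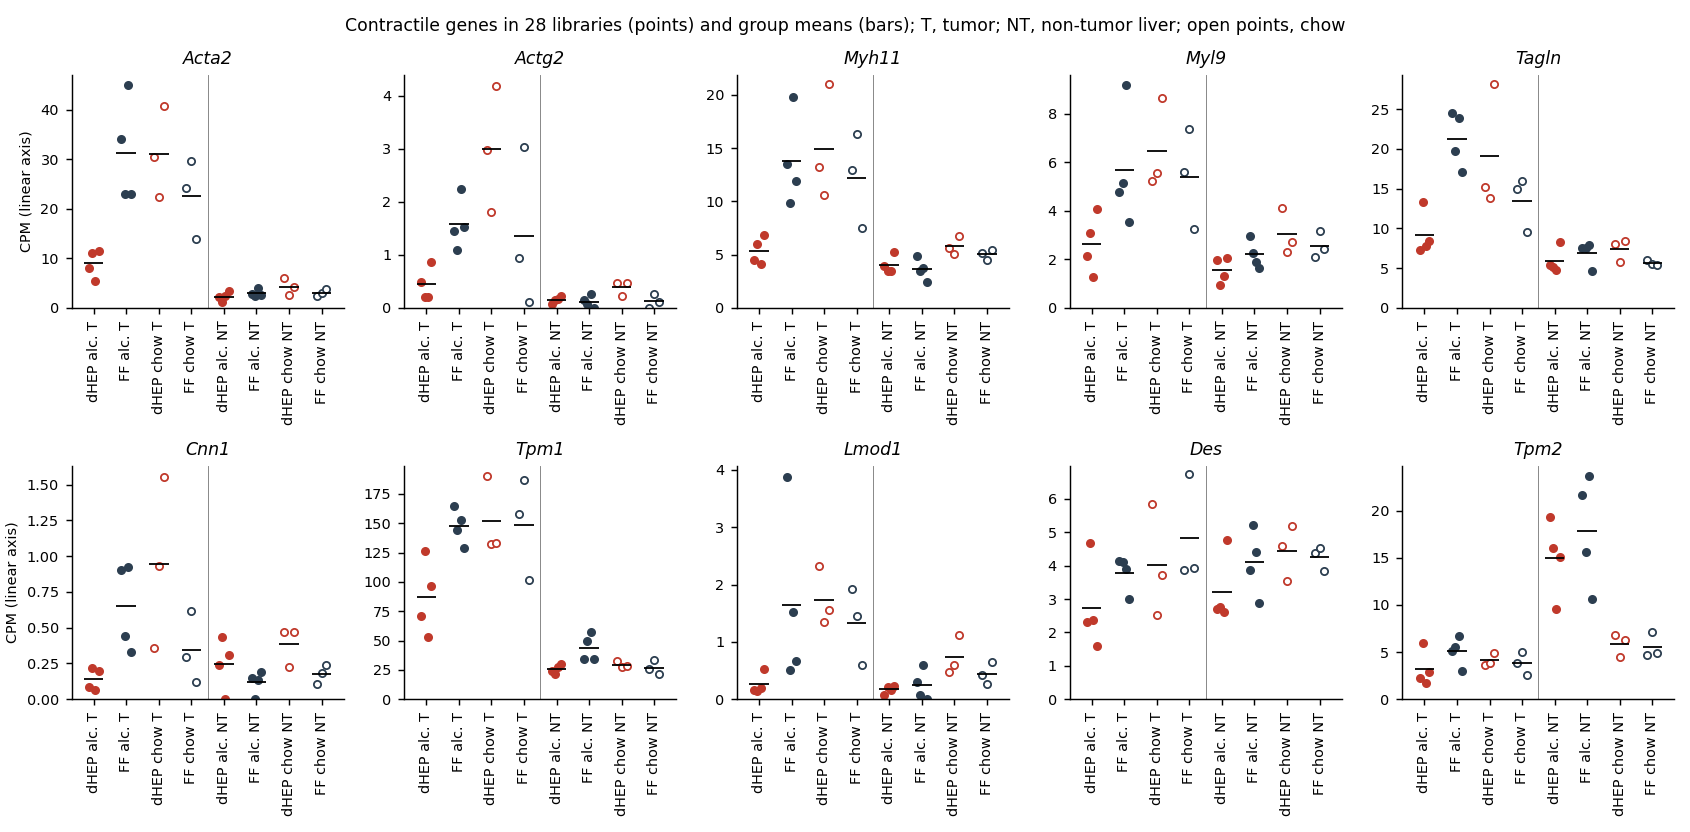
CPM of each of the 10 genes (y axis, linear) in every library, by group (x axis); points are libraries, bars are group means, red is dHEP, dark is FF, and open points are chow. Acta2 in dHEP alcohol tumors (5.44 to 11.5 CPM) lies below every other tumor library, while Tpm2 is highest in alcohol non-tumor liver.

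The actin genes come first. Acta2 encodes smooth muscle alpha actin and lies at chr19:34241090-34255590 (GRCm38, minus strand). In alcohol tumors Acta2 was at 8.09, 11.02, 5.44 and 11.5 CPM in dHEP, against 34.1, 22.9, 44.9 and 23.0 CPM in FF. The groups did not overlap, and the dHEP mean was 28.8% of the FF mean. Chow tumors did not show this: Acta2 was at 30.4, 22.3 and 40.6 CPM in dHEP, against 24.2, 29.6 and 13.9 CPM in FF, overlapping ranges. In non-tumor liver Acta2 was low throughout, at 2.29 ± 0.898 CPM in dHEP, against 3.01 ± 0.774 CPM in FF on alcohol (SD, n = 4 each), and at 4.26 ± 1.71 CPM in dHEP, against 3.11 ± 0.743 CPM in FF on chow (SD, n = 3 each). The dHEP alcohol tumors thus lay below the other 10 tumors, and dHEP-549, at 5.44 CPM, lay inside the range of non-tumor liver, which reached 5.96 CPM.

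Actg2 encodes the gamma actin of enteric smooth muscle, a protein nearly the same as that of Acta2. Whether reads were shared between these genes was not checked. In alcohol tumors Actg2 was at 0.497, 0.216, 0.203 and 0.865 CPM in dHEP, against 1.44, 1.10, 2.25 and 1.53 CPM in FF, without overlap. In chow tumors it was at 2.98, 1.81 and 4.19 CPM in dHEP, against 0.935, 3.03 and 0.121 CPM in FF. In non-tumor liver it reached at most 0.471 CPM.

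Among actin-binding genes, Tagln encodes transgelin (SM22 alpha), an early smooth muscle marker. In alcohol tumors Tagln was at 7.29, 13.3, 7.80 and 8.46 CPM in dHEP, against 24.5, 19.7, 23.9 and 17.2 CPM in FF. No dHEP tumor reached the lowest FF tumor. In chow tumors Tagln was at 15.2, 13.8 and 28.2 CPM in dHEP, against 15.002, 15.9 and 9.55 CPM in FF, overlapping. Of the exon bases of Tagln, 62.4% overlap the antisense gene Gm48529, which is not a row of the table, and 5.43% overlap Pcsk7 (mean 34.1 CPM) on the other strand. Strand use in counting is not given in the sources used here, so reads of Tagln and its antisense partners cannot be told apart. Cnn1, which encodes calponin 1, was at 0.0828, 0.216, 0.0675 and 0.200 CPM in dHEP alcohol tumors, against 0.902, 0.440, 0.926 and 0.333 CPM in FF alcohol tumors. These dHEP values are at or below the level of 3 reads, and Cnn1 stayed under the filter of every fit. Lmod1, whose product leiomodin 1 nucleates actin filaments, was at 0.166, 0.144, 0.203 and 0.532 CPM in dHEP alcohol tumors, against 3.88, 0.513, 1.52 and 0.666 CPM in FF alcohol tumors. The groups of Lmod1 overlapped at 1 library, dHEP-550.

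The myosin genes ran in the same direction. Myh11, the smooth muscle myosin heavy chain, was at 4.49, 6.02, 4.09 and 6.84 CPM in dHEP alcohol tumors, against 13.5, 9.83, 19.8 and 11.9 CPM in FF alcohol tumors. The dHEP tumors of Myh11 lay close to non-tumor liver, which held 2.39 to 6.73 CPM. Myl9, a regulatory light chain, was at 2.15, 3.09, 1.28 and 4.06 CPM in dHEP alcohol tumors, against 4.78, 5.13, 9.19 and 3.53 CPM in FF alcohol tumors, and the groups overlapped.

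The 2 tropomyosin genes differed from each other. Tpm1 was at 71.3, 127, 52.8 and 96.4 CPM in dHEP alcohol tumors, against 164.97, 144, 153 and 129 CPM in FF alcohol tumors, without overlap but with little between the highest dHEP (127 CPM) and lowest FF library (129 CPM). Tpm2 was at 2.23, 5.97, 1.76 and 2.86 CPM in dHEP alcohol tumors, against 5.14, 5.50, 6.745 and 2.997 CPM in FF alcohol tumors, and overlapped. Both genes also give non-muscle isoforms, and a gene-level count does not separate them. Desmin (Des) was at 2.32, 4.67, 2.36 and 1.60 CPM in dHEP alcohol tumors, against 4.15, 4.10, 3.90 and 2.997 CPM in FF alcohol tumors. Des, often used to find stellate cells in rodents, overlapped between those groups and held group means of 2.74 to 4.84 CPM across all 8 groups.

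Of the 9 genes above the filter, 5 (Acta2, Actg2, Tagln, Myh11 and Tpm1) were lower in dHEP than in FF alcohol tumors without overlap, beside 2.07% of the 13205 genes tested. Cnn1, below the filter and outside that share, did not overlap either. Since the genes were chosen around this difference, nothing is read from that count. On the log2(CPM + 1) scale, which understates changes of low genes, the difference was -1.68 ± 0.30 for Acta2, -1.19 ± 0.28 for Myh11, -1.15 ± 0.25 for Tagln and -0.91 ± 0.33 for Lmod1 (± standard error). It was -0.86 ± 0.31 for Myl9, -0.84 ± 0.34 for Actg2, -0.83 ± 0.26 for Tpm1, -0.59 ± 0.30 for Tpm2 and -0.41 ± 0.27 for Des. Without dHEP-549, the tumor that stood apart, Acta2 differed by -1.48, and without dHEP-520, whose Il17ra lay in the FF range, by -1.78. The median of the 9 genes was -0.86, although Actg2 and Lmod1 reached 1 CPM in 0 of the 4 dHEP alcohol tumors, beside -0.02 over all genes tested.

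Other gene groups are given for the same tumors as descriptions. The median was -0.29 over 16 other smooth muscle genes, -0.36 over 13 non-muscle actin, myosin and tropomyosin genes, and -0.32 over 14 myofibroblast matrix genes, all 14 of which were below 0. It was -0.10 over 15 stellate cell markers and -0.02 over 8 vascular smooth muscle and pericyte markers. Summed stellate cell markers ranged from 237 to 1815 CPM in dHEP alcohol tumors and from 519 to 1223 CPM in FF alcohol tumors. Summed vascular smooth muscle markers ranged from 58.2 to 110 CPM in dHEP alcohol tumors and from 70.4 to 94.2 CPM in FF alcohol tumors. Summed portal fibroblast markers ranged from 19.2 to 35.3 CPM in dHEP alcohol tumors and from 33.1 to 47.9 CPM in FF alcohol tumors, with a median difference of -0.12 over 6 genes. Cholangiocyte markers summed to 7.38 to 751 CPM (median 50.8 CPM) in dHEP alcohol tumors and to 161 to 394 CPM (median 308 CPM) in FF alcohol tumors. Their median difference was -0.57 over 4 genes. Summed over the 10 contractile genes, the medians were 116 CPM in dHEP and 235 CPM in FF alcohol tumors. Hepatocyte markers had a median difference of 0.42 over 10 genes. The part of cell makeup in the lower contractile genes was not tested. Among TGF-beta genes, which drive myofibroblast activation, Tgfb2 differed by -1.52 ± 0.36 and Tgfb3 by -1.37 ± 0.32, beside -0.16 for the median of 17. Among serum response factor and Hippo regulators, Ankrd1, a target of YAP, differed by -1.34 ± 0.45 and Srf itself by -0.29 ± 0.20.

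Whether genotype also set these genes apart elsewhere was tested with limma between groups that the choice of genes did not use. The chow tumor test took its filter and spread from all 14 tumors, the alcohol tumors included; in a fit of the chow tumors alone 0 genes passed too. No gene of any kind passed an adjusted p of 0.05 in alcohol non-tumor liver, chow non-tumor liver or chow tumors, so none of the genes above the filter was called, 0 of 7 in each non-tumor comparison and 0 of 9 in chow tumors, beside a background of 0% in each. Actg2, Lmod1 and Cnn1 were not tested in non-tumor liver. At an unadjusted p below 0.05 limma gave 1077, 588 and 378 genes in these 3 comparisons, among them 1, 0 and 1 of these. In alcohol non-tumor liver that gene was Tpm1, at 24.1, 21.9, 27.5 and 30.2 CPM in dHEP, against 34.7, 49.7, 57.0 and 34.0 CPM in FF. The groups of Tpm1 did not overlap, with a difference of -0.71 ± 0.18 and an adjusted p of 0.331 by limma. Of the 12651 genes tested there, 348 were lower in dHEP without overlap. In chow tumors it was Actg2, at 0.91 ± 0.39 higher in dHEP with an adjusted p of 0.99963 by limma. On chow, Acta2 differed by 0.47 ± 0.35 in tumors and 0.31 ± 0.28 in non-tumor liver, and Tagln by 0.43 ± 0.29 in tumors and 0.33 ± 0.21 in non-tumor liver, none of which passed. The difference of the genotype effect between alcohol and chow in non-tumor liver reached -0.85 ± 0.27 for Tpm1, with an adjusted p of 0.704 by limma. No gene passed that interaction (870 at an unadjusted p below 0.05), nor that of genotype with tissue on chow (421). A p above the threshold does not show that the genotypes were alike.

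**Figure D2:**
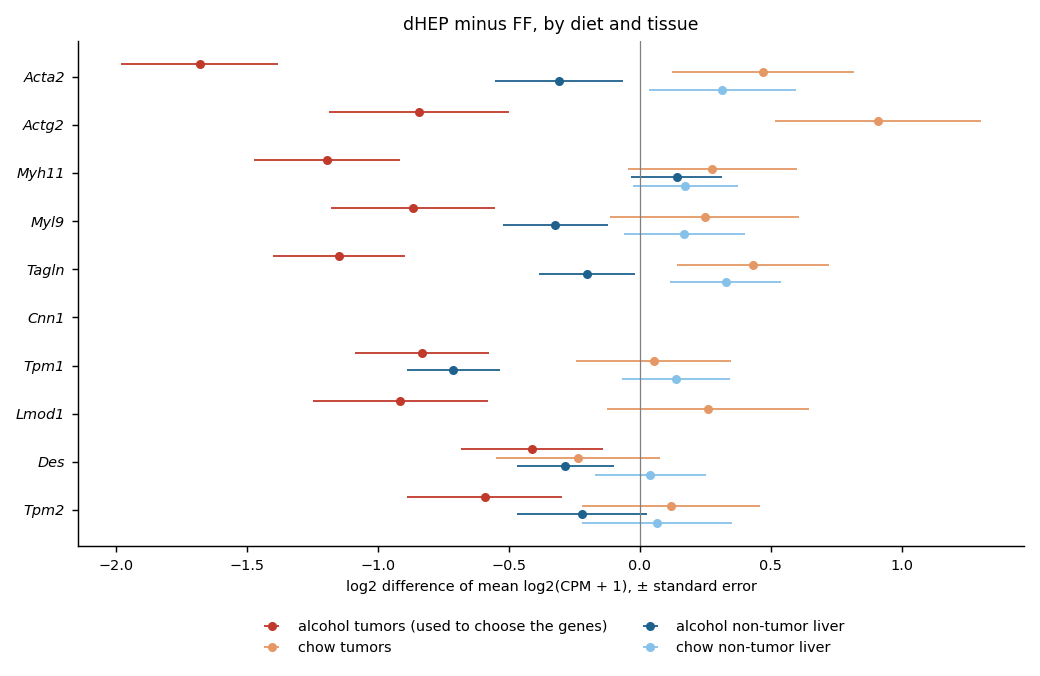
Difference dHEP minus FF of mean log2(CPM + 1) for each gene (x axis, points with standard error bars) in alcohol tumors, which were used to choose the genes, and in 3 comparisons that were not. In alcohol tumors all 9 plotted genes lie below 0, from -1.68 for Acta2 to -0.41 for Des; on chow most lie slightly above 0. Cnn1 was below the filter throughout and has no point.

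The diet contrast in tumors shares the alcohol tumors above, so it is likewise a description. In dHEP tumors, 7 of the 9 genes above the filter were lower on alcohol than on chow without overlap, beside 3.42% of genes tested. Tpm2 and Des were the others. Actg2 and Lmod1, among the 7, reached 1 CPM in 0 of the 4 dHEP alcohol tumors. They passed the filter only through other tumors, so nothing is read from that count. Cnn1, below the filter, did not overlap either. The difference was -1.69 ± 0.33 for Acta2, -1.45 ± 0.37 for Actg2, -1.30 ± 0.30 for Myh11 and -0.94 ± 0.27 for Tagln. In FF tumors 1 of the 9, Tagln, was higher on alcohol without overlap (1.76% of genes tested), by 0.64 ± 0.27, and Acta2 differed by 0.46 ± 0.33. Diet and cohort cannot be told apart in either.

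In non-tumor liver diet could be tested, and Tpm2 stood out. Tpm2 was at 21.7, 15.6, 23.7 and 10.6 CPM on alcohol, against 4.70, 7.16 and 4.92 CPM on chow in FF livers. In dHEP livers it was at 19.3, 16.003, 9.56 and 15.1 CPM on alcohol, against 6.84, 4.52 and 6.31 CPM on chow. Every alcohol liver lay above every chow liver of its genotype. That held for 530 of the 12651 genes tested in FF and 563 in dHEP. The difference was 1.48 ± 0.27 in FF (limma adjusted p 0.0314) and 1.19 ± 0.27 in dHEP (limma adjusted p 0.0615), and the 2 did not differ detectably from each other (-0.29 ± 0.38, limma adjusted p 0.877). So 1 of the 7 genes above the filter was called higher in FF, beside 0.253% of genes, and 0 in dHEP, beside 0.656% called in either direction (limma; 1662 genes and 4 of the 7 at an unadjusted p below 0.05). The FF call was lost without FF-523 (adjusted p 0.0766), FF-581 (0.0574), FF-157 (0.103), FF-158 (0.0527) or FF-159 (0.126), each by limma, while the difference stayed at 1.33 to 1.69 when any 1 library was left out. FF-523 and FF-581 non-tumor livers also held 213 and 159.2 CPM of alpha-fetoprotein (Afp), a tumor marker, against at most 8.82 CPM in the other 12 non-tumor livers; without both, Tpm2 differed by 1.32 with an adjusted p of 0.169 by limma. The FF call was also lost with no filter (adjusted p 0.0576), in a fit of only the groups compared (0.148) and without dHEP-155 and FF-158 (0.0594), each by limma. The gene was called in dHEP under median-of-ratios scaling (1.26, adjusted p 0.0341) and in a fit of only the groups compared (adjusted p 0.0397), by limma in both.

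The other contractile genes above the filter gave no call by diet in non-tumor liver, and Actg2, Lmod1 and Cnn1, below it, were not tested there. In dHEP non-tumor liver on alcohol Acta2 differed by -0.66 ± 0.26 and Myl9 by -0.65 ± 0.22 (limma adjusted p 0.292 and 0.209), and Lmod1 held 0.173 ± 0.0689 CPM on alcohol (SD, n = 4) and 0.730 ± 0.351 CPM on chow (SD, n = 3). In FF non-tumor liver Tpm1 was 0.66 ± 0.19 higher on alcohol without overlap, with a limma adjusted p of 0.133, while Acta2 differed by -0.04 ± 0.26. Of the 12651 genes tested there, 530 were higher on alcohol without overlap.

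Tumor was then compared with non-tumor liver on chow, groups that were not used to choose the genes. Of the 7 genes at 1 CPM or above in at least 13 of the 14 libraries of each tissue, 5 rose in tumors of dHEP mice and of FF mice: Acta2, Tagln, Myh11, Myl9 and Tpm1. The fit covered all 28 libraries, so its filter and spread also rest on the alcohol tumors. In fits of the 2 chow groups alone 4 of the 7 were called in each genotype, without Myl9 (limma adjusted p 0.0722 in dHEP and 0.0667 in FF). There Acta2 had an adjusted p of 0.00312 in dHEP and 0.00167 in FF, Tagln 0.038 and 0.00959, and Myh11 0.029 and 0.0232, by limma. All genes past the filter of the fit of 28 libraries served as background: 17.2% were called higher in dHEP and 21.2% in FF, and 10.7% and 9.55% lower. These shares do not belong to the fits of 2 groups, and they are not limited to genes at 1 CPM in both tissues. The median of all genes was itself shifted by 0.14 in dHEP and 0.16 in FF. Acta2 and Tpm1 moved most. Acta2 averaged 31.1 ± 9.16 CPM in dHEP tumors and 4.26 ± 1.71 CPM in dHEP non-tumor liver, and 22.6 ± 8.001 CPM in FF tumors and 3.11 ± 0.743 CPM in FF non-tumor liver (SD, n = 3 each). Those are 7.31-fold and 7.25-fold higher means, or 2.63 ± 0.33 and 2.47 ± 0.33 on the log2 scale (limma adjusted p 5.71e-06 and 1.57e-05). Tpm1 averaged 152 ± 33.4 CPM in dHEP tumors and 29.5 ± 2.69 CPM in dHEP non-tumor liver, and 149 ± 43.5 CPM in FF tumors and 27.1 ± 6.29 CPM in FF non-tumor liver (SD, n = 3 each). Tpm1 differed by 2.31 ± 0.26 in dHEP and 2.39 ± 0.26 in FF, with every tumor above every non-tumor liver. The same held for 3169 of the 13503 genes tested in dHEP and 4143 in FF.

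The others rose less. Tagln rose by 1.20 ± 0.26 in dHEP and 1.09 ± 0.26 in FF, and Myh11 by 1.18 ± 0.27 in dHEP and 1.08 ± 0.27 in FF (limma adjusted p 0.0015 to 0.0047). Myl9 rose by 0.88 ± 0.31 in dHEP (limma adjusted p 0.0352) and 0.80 ± 0.31 in FF (limma adjusted p 0.04998). The Myl9 calls were not stable: they were lost when animal was a block (dHEP, 0.0794), under median-of-ratios scaling (dHEP 0.0551, FF 0.0853) and without several single libraries, up to an adjusted p of 0.215 without FF-168, all by limma. Actg2 reached 1 CPM in 8 tumors and 0 non-tumor livers, so it passed the filter only through the tissue where it was high, and its values are a description. It differed by 1.49 ± 0.30 in dHEP and 0.87 ± 0.30 in FF. In FF it passed the threshold with all libraries (adjusted p 0.0309), not without FF-168 tumor (0.39, adjusted p 0.292), FF-167 tumor (0.0557), FF-157 (0.104) or FF-159 (0.0753), by limma. In dHEP, leaving out the library labelled dHEP-155 tumor, whose Il17ra lay in the FF range, left these 5 genes called. Without FF-158 non-tumor liver and FF-168 tumor together, a choice made after seeing the data, 3 of the 7 genes stayed called in FF: Acta2 at 2.24, Tagln at 0.95 and Tpm1 at 2.38; Myh11 was at 0.79 with a limma adjusted p of 0.0852. Lmod1, which reached 1 CPM in 7 tumors and 1 non-tumor liver, was 0.67 ± 0.31 and 0.65 ± 0.31 higher in dHEP and FF tumors without passing (limma adjusted p 0.112 and 0.114). Des (-0.16 ± 0.27 in dHEP, 0.12 ± 0.27 in FF) and Tpm2 (-0.42 ± 0.32 in dHEP, -0.47 ± 0.32 in FF) did not pass either.

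**Figure D3:**
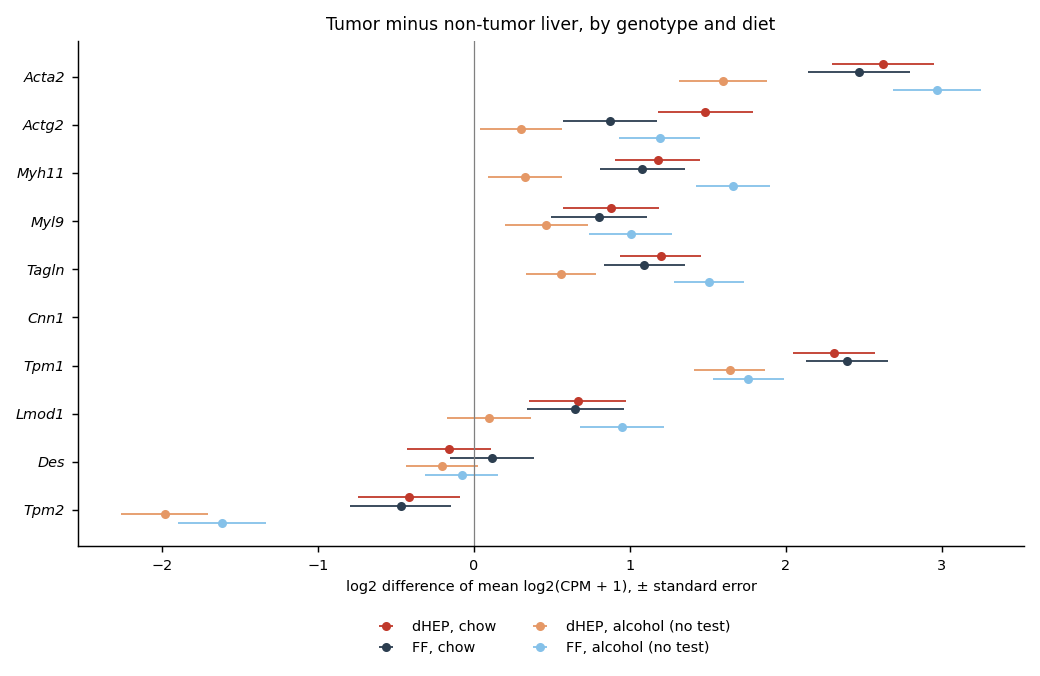
Difference tumor minus non-tumor liver of mean log2(CPM + 1) for each gene (x axis, points with standard error bars), by genotype and diet. Acta2 and Tpm1 lie above 1.5 in every comparison, dHEP alcohol values lie left of the others for Acta2, Tagln and Myh11, and Tpm2 reaches -1.98 in dHEP and -1.61 in FF on alcohol.

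On alcohol the same contrast is a description. In dHEP mice 2 of the 9 genes above the filter, Acta2 and Tpm1, were higher in tumors without overlap (13.8% of genes tested). In FF mice 6 of the 9 were (15.9%), with Cnn1, below the filter, as well. The 6 include Actg2, which reached 1 CPM in 0 non-tumor livers and passed the filter only through tumors. Acta2 differed by 1.60 ± 0.28 in dHEP, at 3.93 times the non-tumor mean, and by 2.97 ± 0.28 in FF, at 10.4 times. Myh11 differed by 0.33 ± 0.24 in dHEP and 1.66 ± 0.24 in FF, and Tagln by 0.56 ± 0.22 in dHEP and 1.51 ± 0.22 in FF. Tpm2 ran the other way, lower in tumors without overlap by -1.98 ± 0.28 in dHEP and -1.61 ± 0.28 in FF, as its level in alcohol non-tumor liver was high. Of the 13503 genes tested, 996 were lower in tumors without overlap in dHEP and 1677 in FF.

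Gene groups around the 10 were also counted in chow tumors. Over all genes tested, 17.2% were called higher in dHEP and 21.2% in FF, and 10.7% and 9.55% lower. Several of the counts below lie near these shares, and no list was tested as a set. The matrix genes Timp1 and Lox and the portal fibroblast marker Eln passed the filter only with the tumors included. Their part in the counts is a description. Of 13 non-muscle actin, myosin and tropomyosin genes, 10 rose in dHEP and 10 in FF, 9 of them in both, among them Tpm4 (1.54 ± 0.27 in dHEP, 1.56 ± 0.27 in FF) and Myh9 (1.58 ± 0.23 in dHEP, 1.43 ± 0.23 in FF). Of 16 other smooth muscle genes, 4 rose in both, namely Smtn, Pdlim7, Csrp1 and Cald1, while Pgm5 fell in both and Mylk, the myosin light chain kinase, fell in dHEP (-0.999 ± 0.302). Of 14 myofibroblast matrix genes, 9 rose in dHEP and 10 in FF, with the collagen gene Col1a1 at 3.81 ± 0.76 in dHEP and 3.04 ± 0.76 in FF. Of 7 portal fibroblast markers 4 rose in each genotype, and of 8 vascular smooth muscle and pericyte markers 1, Mcam, rose in both. Of 15 stellate cell markers, 1 rose in both genotypes, 7 fell in dHEP (Dcn, Ecm1, Hgf, Vipr1, Colec11, Hand2 and Colec10) and 4 in FF (Ecm1, Vipr1, Colec10 and Angptl6). Lrat, which makes the stored vitamin A esters, differed by -1.55 ± 0.60 in dHEP and -0.65 ± 0.60 in FF without passing. Summed stellate cell markers ranged from 524 to 1064 CPM in dHEP tumors and from 918 to 1030 CPM in dHEP non-tumor liver, and from 704 to 2261 CPM in FF tumors and from 832 to 897 CPM in FF non-tumor liver. Of 8 Kupffer cell markers 5 fell in dHEP and 0 in FF, and of 11 endothelial markers 1 fell in dHEP and 3 rose in FF. Of 5 cholangiocyte markers 1 rose in dHEP and 0 in FF, and of 4 mesothelial markers 0 passed in either. Hepatocyte markers moved too, with 1 of 10 higher and 4 lower in dHEP, and 1 higher and 2 lower in FF. The part of cell makeup in the rise of the contractile genes was not tested, and the markers do not assign them to stellate cells.

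Regulators and signals gave further counts, beside the same 17.2% and 21.2% of all genes called higher and 10.7% and 9.55% called lower in dHEP and FF. Of 17 TGF-beta and contraction genes, 6 were called higher and 1 lower in dHEP, and 8 higher and 1 lower in FF. The angiotensin receptor gene Agtr1a fell by 1.21 in dHEP and by 0.92 in FF. Of 12 serum response factor and Hippo regulators, 4 were called higher in dHEP (Ankrd1, Wwtr1, Tead4 and Yap1) and 2 in FF (Srf and Tead4). Tgfb2, Ankrd1 and Tead4 did not pass the filter in non-tumor liver. They entered this fit only with the tumors included, so their values and their part in the counts are descriptions. Tgfb2 differed by 1.99 ± 0.32 in dHEP and 1.57 ± 0.32 in FF. The counts were not compared between the genotypes. Only single genes were tested, by the interaction of genotype with tissue above, which no gene passed.

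**Figure D4:**
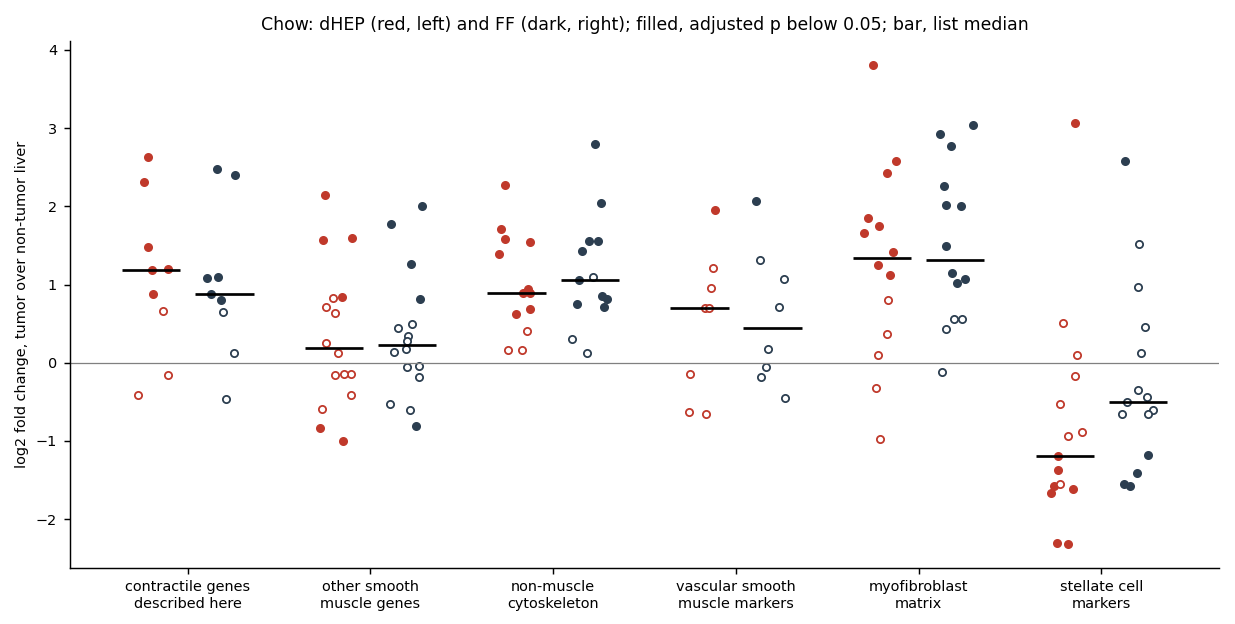
Log2 fold change of tumor over non-tumor liver on chow (y axis) for the genes of 6 lists (x axis), dHEP in red to the left and FF dark to the right; filled points passed an adjusted p of 0.05 and bars are list medians. Acta2 and Tpm1 are the highest contractile genes, between 2.31 and 2.63, and the median of stellate cell markers is -1.19 in dHEP and -0.51 in FF.

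Across libraries most of the 10 genes ran in parallel. Over the 28 libraries, Acta2 correlated with Tpm1 (Pearson r 0.94, Spearman rho 0.89), Tagln (r 0.94, rho 0.91) and Myh11 (r 0.93, rho 0.90). These points share tissue, group and animal, and fall into a tumor and a non-tumor cluster, so the values are descriptions only. For the deviations from the 8 group means, which leave out group differences, r was 0.61 for Tpm1 (rho 0.62), 0.68 for Tagln (rho 0.73) and 0.77 for Myh11 (rho 0.78). Tpm2 changed sign between both views: with Acta2 it had r -0.55 (rho -0.52) over libraries and 0.54 (rho 0.56) for deviations. Pooled over the 8 groups, libraries above their group mean in Acta2 thus tended to lie above it in Tpm2 too. The groups themselves were ordered differently. Des was weakly related to Acta2 in both (r 0.15 and 0.38, rho 0.14 and 0.43).

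**Figure D5:**
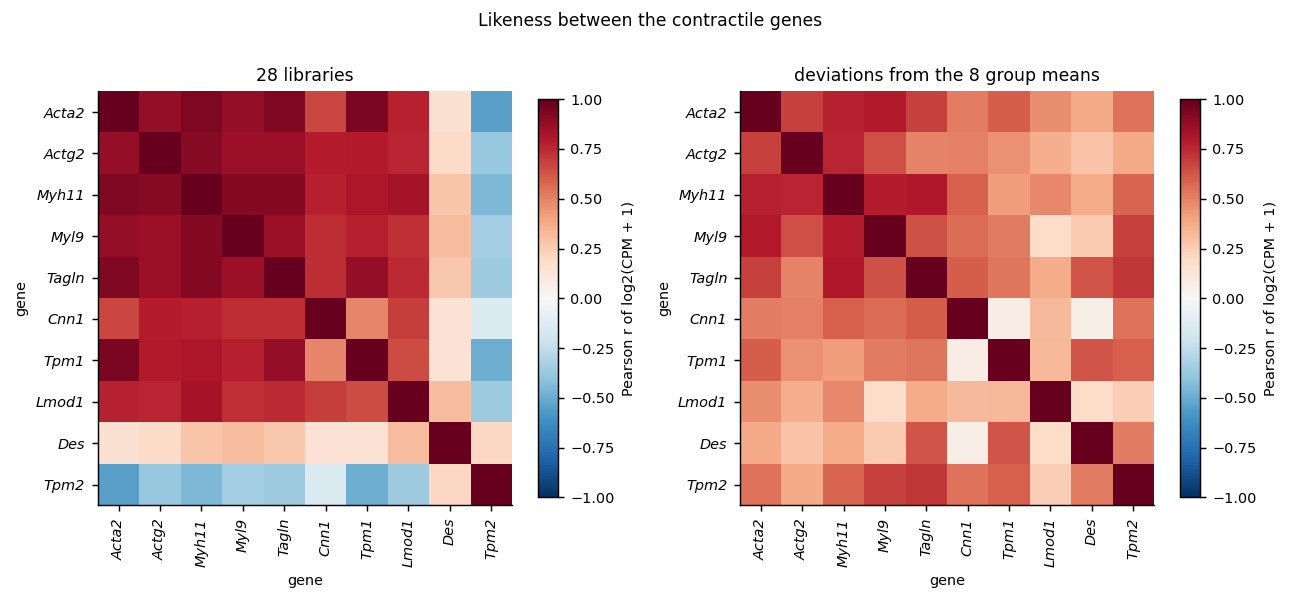
Pearson r of log2(CPM + 1) between the 10 genes (both axes), over 28 libraries on the left and for deviations from the 8 group means on the right; red is positive and blue negative. On the left Tpm2 is negative with every gene but Des, down to -0.55, and on the right it is positive with all, up to 0.72.

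Among the 13375 other genes ranked, Anxa1, which encodes the actin- and membrane-associated annexin A1, was most like the mean of the 9 genes above the filter, with r 0.92 over 28 libraries and 0.83 for deviations. Without the 2 libraries farthest from the median of that mean, r was 0.90 and 0.75. The libraries include the alcohol tumors used to choose the genes, so this likeness is a description. Anxa1 averaged 7.93 CPM in dHEP alcohol tumors and 16.7 CPM in FF alcohol tumors, and 14.05 CPM in dHEP chow tumors and 15.9 CPM in FF chow tumors. Next over libraries were Cdh3, Tgfb3, Lmcd1, Prss23, Col8a1, Nck2, Chka, Lpin3 and Lama2 (r 0.89 to 0.92). For deviations the next were Pde4d, Coq7, Atp5s, Fbxo8, Col4a1, Col4a2, Nes, Prss23 and Ppp2r1a (r 0.77 to 0.80). Anxa1 and Prss23 were in both sets.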

How the data were processed

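Gene-level CPM values (reads scaled to a library total of 1000000) for 22187 genes in 28 libraries were deposited by the authors; per the submitters' processing notes STAR 2.5.1a and RSEM 1.3.0 were used on GRCm38. The annotation and strand setting are not given in the sources used here. By the labels the libraries hold polyA RNA, yet the kit named is one for total RNA that keeps strand. Symbols were found for 21653 gene IDs. Reads per library were estimated from the steps between low values; 85.2% to 87.4% of values up to 20 reads were whole within 0.1 read, too few for a count model.

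Tests used limma 3.58.1 in R 4.3.3 on log2(CPM + 1), with a mean-variance trend, keeping genes that reached 1 CPM in 3 or more fitted libraries, adjusted by Benjamini-Hochberg over all tested genes (12651 in 14 non-tumor, 13205 in 14 tumor and 13503 in all 28 libraries). The scripts were tested on simulated data. The 10 genes and the 14 other lists were chosen with earlier results of these data known. List genes were named from those past the test; Lrat, and Tgfb2, Tgfb3, Ankrd1 and Srf in alcohol tumors, were named after their values were seen. Some measured values are not reported here. Promoters came from RefSeq. Deviations of the 2 tissues of an animal correlated at 0.07 to 0.19 in dHEP chow, 0.16 to 0.36 in FF alcohol and -0.11 to 0.25 in dHEP alcohol animals, and the standard errors of the alcohol tissue contrasts leave the shared animals out of account; the same animals gave both tissues, so the fit with animal as a block is given where it changes a call.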

Additional observations from a re-analysis of the deposited data

Results flagged for a closer look

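Of 40 groups of 4 libraries tested for a library apart from the other three, 4 had one, against about 1 in 20 by chance. Tagln was lowest in FF-595 among FF alcohol non-tumor livers, at 4.689 CPM. In dHEP alcohol non-tumor liver, dHEP-550 was highest for Tagln (8.272 CPM) and for Des (4.762 CPM). In dHEP alcohol tumors, dHEP-550 was highest for Lmod1, at 0.5321 CPM, which is about 8 reads.

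The diet difference of Tagln went opposite ways in the 2 genotypes. It was -0.9429 (log2) in dHEP tumors, with every alcohol library below every chow library, and 0.6393 in FF tumors, with every alcohol library above every chow library. Of all genes tested, 3.42% were lower without overlap in dHEP tumors and 1.76% higher in FF tumors. The difference between the genotypes was not tested, because the alcohol tumors were used to choose the genes.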

How the results depend on the processing

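Of 1078 single-gene values recomputed under the alternatives, 1043 were counted as the same. For tested values this means the same side of the threshold. For the untested alcohol tumor contrast it means a shift below the larger SD of its groups. Among the 1043, 53 values past the threshold in neither fit changed sign. Another 31 lost a call, 3 gained one, 1 moved (Actg2 in alcohol tumors, -1.17 with a pseudocount of 0.5) and 0 called values reversed. Without FF-158 non-tumor liver and FF-168 tumor, an alternative chosen after seeing the data, 3 of the 10 genes were called in the FF chow tissue comparison, against 6 with all libraries, Actg2 included. With 1 replicate left out, 5 to 6 of the 10 were called in dHEP and 4 to 7 in FF chow tumors. These counts can include Actg2 and, without FF-169 tumor, Lmod1. Both passed the filter only with the tumors included, so their part in the counts is a description. In non-tumor liver, alcohol against chow in dHEP gave 1 of the 10 genes under median-of-ratios scaling and 1 in a fit of only the groups compared; in FF it gave 0 with no filter, 0 in only the groups compared, 0 without FF-523 and FF-581, 0 without dHEP-155 and FF-158, and 0 to 1 with 1 replicate left out. Counts over all genes for diet moved from 83 in dHEP to 197 in only the groups compared, 6 without dHEP-155 and FF-158, and 2 to 42 with 1 replicate left out. In FF they moved from 73 to 147 under median-of-ratios scaling, 31 with no filter, 1 in only the groups compared, 9 without FF-523 and FF-581, 0 without dHEP-155 and FF-158, and 3 to 216 with 1 replicate left out. The dHEP chow tissue comparison gave 3769 genes, 1925 in only the groups compared, 2149 with the replicate block (animal), and 2372 to 4234 with 1 replicate left out. The block left 5 of the 10 genes called, Actg2 among them and Myl9 not. The genotype comparisons gave 0 to 1 genes in chow non-tumor liver, 0 to 4 in chow tumors and 0 to 3 for genotype by tissue with 1 replicate left out. The causes were not tested. No paired analysis was possible for FF chow because the tissues came from different animals. Depth limits Cnn1, Lmod1 and Actg2, which lay near 3 reads in most non-tumor libraries.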

Other observations

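The genes most like Tpm2 were looked up after its level in alcohol non-tumor liver had been seen. Over 28 libraries the nearest included Cfd (adipsin, r 0.89), Cidea, a lipid droplet gene (r 0.87), and Mogat1, an acylglycerol acyltransferase gene (r 0.85). Cfd averaged 41.6 CPM in dHEP and 62.2 CPM in FF alcohol non-tumor liver, against 8.47 CPM in dHEP and 1.93 CPM in FF chow non-tumor liver. Cidea averaged 8.06 CPM in dHEP and 20.1 CPM in FF alcohol non-tumor liver, against 3.83 CPM in dHEP and 0.655 CPM in FF chow non-tumor liver. In tumors both stayed at 1.64 CPM or below in every group mean. These points share diet, tissue and animal, and the likeness is a description.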
